A study of Mus musculus with 6 samples.

Results

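The nasal conjunctival epithelium of mouse embryos was compared between an array labelled Sox9 knockout (KO-labelled) and an array labelled wild type (WT). These are 2 of the 6 arrays of the series, chosen by their region label, and the other 4 are the temporal and dorsal pairs. Embryos labelled knockout carried floxed Sox9 alleles (Sox9 fx/fx) and the Le-Cre transgene, which the label writes as Sox9-/-, and the others were labelled wild type. Both were of a mixed FVB and 129 background and were taken at stage E14.5. Le-Cre is driven by Pax6 regulatory sequence in the surface ectoderm of the eye, so cells of other origin keep their Sox9 alleles. By the design text, 3 embryos of each genotype were used and the cDNA of a region was pooled onto 1 array, whereas the extraction protocol names lens tissue of a single embryo. With 1 array on each side there was no replicate check, no difference was tested, and each value carries only its error over the beads of that array.

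The conjunctiva is the thin epithelium that lines the eyelids and continues onto the eye. From its nasal part the Harderian gland buds and grows into the mesenchyme around the eye, a step for which FGF signals from that mesenchyme and heparan sulfate chains on cell surfaces are known to be needed. The transcription factor SOX9 acts in gland buds and in cartilage, where it drives the genes of collagen II and aggrecan, and SOX10 and SOX8 are its close relatives.

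A probe was counted as detected where its deposited detection p-value was under 0.05. This held for 18040 probes (39.8%) on the array labelled knockout and 19654 (43.4%) on the wild-type array, against 18877 to 20660 on the other 4. The medians of all signals were 82.4 intensity units on the KO-labelled array and 77.3 on the WT array, and the part of such differences between the arrays in the results was not tested. A typical probe had 43 beads. Levels are given as the log2 of the background-corrected signal after quantile normalization over the 6 arrays. A difference is the array labelled knockout minus wild type on that scale, with its bead standard error (SE). The bead SE was computed without the quantile normalization. Markers of surface epithelium were detected on both nasal arrays, as on the other 4, so they do not check the region label. Of 13 markers of surface epithelium on the array, 13 were detected on the array labelled knockout and 12 on the wild-type array, and their corrected signals summed to 9639 intensity units on the KO-labelled and 8927 on the WT array. The keratin gene Krt5 read 10.53 on the KO-labelled and 10.27 on the WT array, Krt14 read 10.26 (KO-labelled) and 10.24 (WT), and the eye transcription factor gene Pax6 differed by 0.68.

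Sox9 itself was higher, not lower, on the array labelled knockout. Its brighter probe (ILMN_2778151) read 1388 intensity units on that array and 328 on the wild-type array, or 10.21 (KO-labelled) against 8.29 (WT) on the log2 scale (difference 1.92, bead SE 0.08). The same probe read 10.06 and 10.01 on the temporal arrays labelled knockout and wild type, and 9.85 and 10.35 on the dorsal ones. The wild-type nasal array was thus the low one of the 6, and the array labelled knockout lay among the rest. The dimmer probe (ILMN_3007428) read 6.20 (KO-labelled) against 5.21 (WT) in nasal (difference 0.99, bead SE 0.15). The positions of these probes relative to the floxed exons are unknown here, so they do not check the label, and every direction given here is that of the array labelled knockout. Of the relatives, Sox10 read 4.66 (KO-labelled) against 5.87 (WT) in nasal (difference -1.21, bead SE 0.13), while 2 probes of Sox8 were detected on neither nasal array.

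Across the epithelium, 10320 genes were detected on at least 1 nasal array, and 2169 of them (21.0%) differed at least 2-fold. Of these, 1087 (10.5%) had the higher level on the array labelled knockout and 1082 (10.5%) the lower, and with median scaling in place of quantile normalization the split was 1541 higher and 831 lower. That scaling moved the median difference of all genes from -0.04 to 0.17. The middle 90% of genes lay between -1.42 and 1.41. At least 4-fold differences numbered 178 higher and 141 lower. The bead SE of a difference had a median of 0.13, and all 2169 differences exceeded 3 times their own bead SE. With bead SEs of this size the 2-fold cut nearly ensures that, so it lends the differences no support. The bead error covers reading the array and not the dissection, the amplification or the embryos. By mean level, 17.8% of the dimmest, 30.1% of the middle and 15.1% of the brightest 3440 genes differed at least 2-fold.

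**Figure D1:**
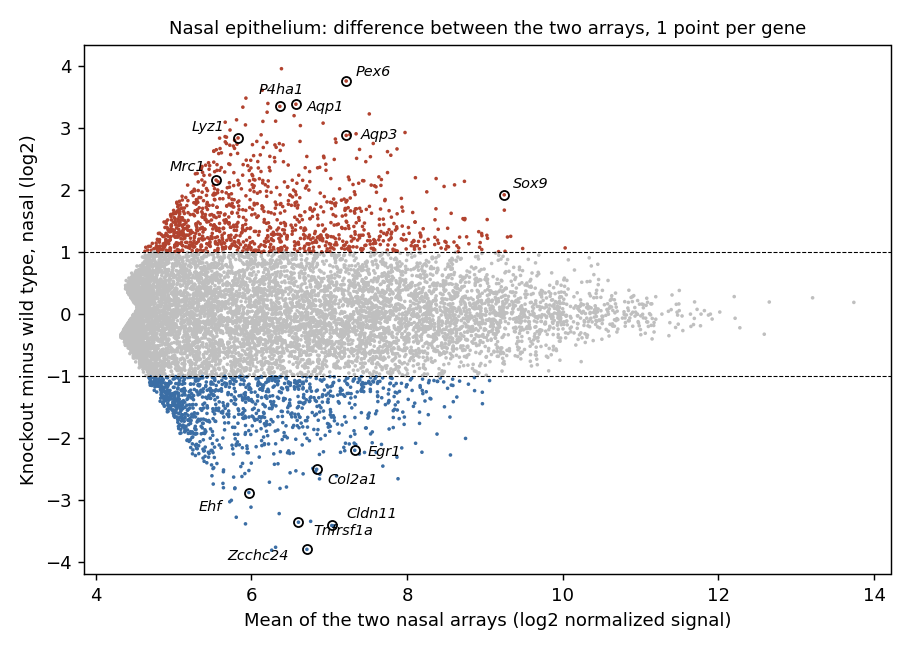
Difference between the nasal array labelled knockout and the nasal wild-type array (y axis, log2) against the mean level of the 2 arrays (x axis, log2 normalized signal) for 10320 genes, 1 point each, with dashed lines at 2-fold. Red points are the 1087 genes at least 2-fold higher on the array labelled knockout and blue points the 1082 lower, and ringed genes are named.

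A 2nd probe for the same gene gives a check that the beads of 1 probe cannot. There were 3023 genes with 2 probes detected on both nasal arrays, and the differences of the brighter and the next probe correlated at 0.28 across these genes, which share both arrays and are not independent replicates. Where the brighter probe differed at least 2-fold (586 genes), the next had the same sign in 394 (67.2%) and was itself at least 2-fold the same way in 138. All probes of a gene detected on both nasal arrays were at least 2-fold higher for 55 of the 3023 genes and at least 2-fold lower for 49. For genes named with a difference of about 2-fold or more, values of other probes detected on both arrays are given where they differ in sign or by much in size.

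**Figure D2:**
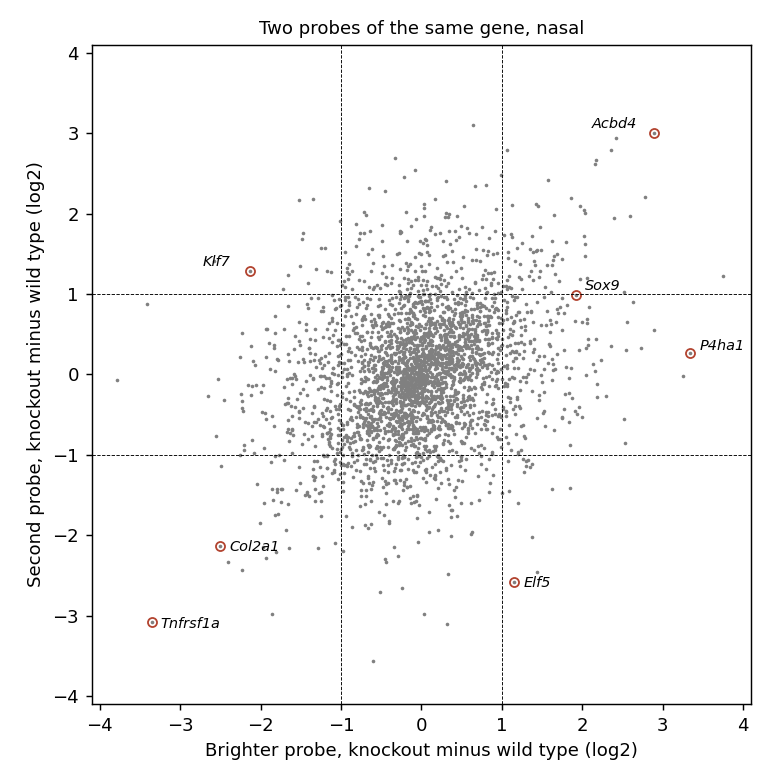
Difference between the nasal array labelled knockout and wild type (log2) for the brighter (x axis) and the next brightest (y axis) probe of each of 3023 genes with 2 probes detected on both nasal arrays, 1 point per gene. Tnfrsf1a, Col2a1 and Acbd4 lie beyond 2-fold the same way on both axes, P4ha1 does so on the x axis only, and Klf7 and Elf5 lie beyond 2-fold in opposite directions.

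Some genes had 2 or more probes detected on both nasal arrays, all at least 2-fold apart in the same direction. Downward these were led by Tnfrsf1a, the main receptor for tumour necrosis factor. It read 4.93 on the array labelled knockout against 8.28 on wild type (difference -3.35, bead SE 0.10), and its 3 probes gave -3.35 to -3.08. On the other arrays it read 6.24 to 6.94, so the KO-labelled nasal array was the lowest of the 6 and the wild-type nasal array the highest. Col2a1, which encodes collagen II and is a classic SOX9 target in cartilage, was also among them. It read 5.59 on the KO-labelled against 8.09 on the WT array (difference -2.50, bead SE 0.12, 3 probes from -3.29 to -2.13). In temporal it read 4.24 on the array labelled knockout against 10.04 on wild type, and in dorsal 5.02 (KO-labelled) against 6.15 (WT). Each array labelled knockout was lower than every wild-type array. Others were Rsl1d1, a nucleolar protein of ribosome formation (-2.22, probes -2.43 to -2.22), Tent2, a poly(A) polymerase (-2.41, 3 probes to -2.15), the lysosomal protease gene Ctsz (-1.97), the secreted protease gene Adamts18 (-1.86, probes -2.98 to -1.86) and the membrane mucin gene Muc4 (-1.82, probes -1.82 to -1.74). Btbd3 (-1.94), Alg11, a mannosyltransferase of N-glycan assembly (-2.01), and Rnf185, a ubiquitin ligase of the endoplasmic reticulum (-1.78), completed the 10.

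Upward, Acbd4, an acyl-CoA binding protein, had the highest smaller-probe difference, with 7.57 on the KO-labelled against 4.68 on the WT array (2.89, bead SE 0.12) and 3.00 from its other probe. It also read 7.03 (KO-labelled) against 5.05 (WT) in temporal and 7.22 (KO-labelled) against 5.75 (WT) in dorsal, so the 3 arrays labelled knockout lay above the 3 wild-type ones. Man2b1, the lysosomal alpha-mannosidase, read 8.02 on the KO-labelled against 5.23 on the WT array (2.78, probes 2.21 to 2.78), and the other 4 arrays lay between 5.34 and 5.93. Pias3, a SUMO ligase that restrains STAT3, differed by 2.36 (probes to 2.78), the tyrosine kinase gene Abl1 by 2.17 (probes to 2.67), Tpst2, which sulfates tyrosines, by 2.02 and Espl1, the separase of chromosome segregation, by 2.39 (probes 1.94 to 2.39). Igsf1 (2.16), Zfp41 (2.04), the nucleotide receptor gene P2ry14 (1.97) and Bahcc1 (2.59) were the rest of the 10.

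By size alone, among genes detected on both nasal arrays, Pex6, an ATPase that recycles peroxisomal import receptors, had the largest positive difference at 3.75 (bead SE 0.14). It read 9.10 (KO-labelled) against 5.34 (WT), and the other 4 arrays lay between 7.44 and 8.51, so both nasal arrays lay outside their range, the wild-type one by the wider margin. A 2nd detected Pex6 probe gave 1.22. Mob3b (3.39), Rhobtb1 (3.22), Rusf1 (3.20), the ciliary transport gene Ift88 (3.11), the sugar kinase gene Fggy (3.10) and the tRNA methyltransferase gene Trmt2a (3.08) each had 1 probe detected on both arrays. Rpl21, a ribosomal protein gene with many near-identical copies, gave 3.25 and -0.02 from its probes and is uncertain. In the other direction Zcchc24 differed by -3.79, with -0.07 from its other probe, and Ttc19, an assembly factor of respiratory complex III, by -3.41, with 0.88 from its other probe. The checkpoint kinase gene Chek1 (-3.34), the nucleotidase gene Entpd5 (-3.21), Surf6 (-2.81), Kank2 (-2.78) and Pou5f2 (-2.71) each had 1 probe detected on both arrays. Ergic2 gave -2.65 and -0.27.

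A further 826 genes were detected on the array labelled knockout alone and 1411 on the wild-type array alone. For these a lower bound was set by the dimmest detected signal on the array that missed the gene, and 201 genes were at least 2-fold higher and 269 at least 2-fold lower by that bound. Zfp595 was at least 14.7-fold higher on the array labelled knockout, BC028528 at least 11-fold, Trnp1, a nuclear protein of neural progenitors, at least 9.08-fold, the organic anion carrier gene Slco3a1 at least 8.40-fold, Spo11 at least 7.79-fold and Efcab11 at least 7.40-fold. Spo11 encodes the enzyme that cuts DNA in meiosis and was detected on 2 of the 6 arrays. Lower by the same bound were the fatty acid transporter gene Slc27a3 (at least 12.2-fold), Smim5 (at least 12.0-fold), Noxo1, an organizer of NADPH oxidase (at least 8.18-fold), Cyb561a3 (at least 7.82-fold), Slc26a9, a chloride transporter of epithelia (at least 7.26-fold), and Ehf (at least 7.07-fold).

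Genes of ocular glands and gland buds did not share a direction. Of 23 on the array 18 were compared, and 7 were higher on the array labelled knockout and 11 lower. At least 2-fold were 3 and 2, against 10.5% of all genes each way. Their median difference was -0.04, the same as that of all genes, and 0.29 with median scaling. Ehf, an ETS factor of glandular epithelium, was not detected on the nasal array labelled knockout (4.53) and read 7.40 on wild type. It read 5.94 (KO-labelled) against 6.68 (WT) in temporal and 5.56 (KO-labelled) against 7.54 (WT) in dorsal, so the 3 arrays labelled knockout were the 3 lowest. Its relative Elf5 gave 8.64 (KO-labelled) against 7.49 (WT) from its brightest probe (difference 1.16), but -2.58 and -1.54 from 2 other probes detected on both arrays, and its mean over probes was -0.99. Tfap2a, a transcription factor of surface ectoderm, likewise ran from -0.59 to 1.27 over 5 probes. Runx1, a Runt-family transcription factor, differed by 1.00 and Barx2, a lacrimal gland homeobox gene, by 0.07 (2nd probe -0.95). Six2 differed by -0.52, the mesenchymal and glandular forkhead gene Foxc1 by -0.53, and Mia, also known from cartilage, by -0.93 (2nd probe 0.01). The keratin genes of simple and ductal epithelium Krt7, Krt18 and Krt19 differed by -0.02, -0.61 and 0.16.

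Cartilage matrix genes were mostly low, and most of the 8 compared were lower on the array labelled knockout. Of 19 on the array 8 were compared, 1 higher and 7 lower, with a median of -0.37 (-0.33 with median scaling). Col2a1 was the 1 gene past 2-fold. Acan, the aggrecan gene, differed by 0.07, Col9a3 by -0.62, Col11a1 by -0.37 and Sox5, a partner of SOX9, by -0.33. Col9a2 and Matn4 were detected on the wild-type array alone, so they could enter the comparison only as lower. Of the list's summed corrected signal Col2a1 carried 32.1 intensity units on the KO-labelled and 256 on the WT array, and the other 18 genes summed to 145 (KO-labelled) and 210 (WT).

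Fibrillar and basement membrane collagens differed in both directions. Col1a2 read 4.80 on the KO-labelled against 7.20 on the WT array (difference -2.40, bead SE 0.21) and Col3a1 5.37 on the KO-labelled against 7.59 on the WT array (-2.22, 2nd probe -0.45), both structural collagens of mesenchyme, whereas Col5a1 read 9.61 on the KO-labelled against 8.31 on the WT array (1.30). Col1a1 differed by -0.95 and vimentin (Vim) by -0.15. Of 22 markers of the mesenchyme around the eye 15 were compared, 6 higher and 9 lower (median -0.15, and 0.03 with median scaling), and their signals summed to 2970 intensity units on the KO-labelled and 2704 on the WT array. Among 23 basement membrane genes, 12 were higher and 11 lower (median 0.06), with Fras1, which links epithelium to mesenchyme, at 1.21, the collagen IV chain gene Col4a2 at -1.74 and the laminin gene Lamb3, not detected on the array labelled knockout, at least 2.63-fold lower. Of 13 collagen processing genes compared, 3 were higher and 10 lower (median -0.14). Past 2-fold were 3 higher and 2 lower, against 10.5% of all genes each way. P4ha1, a prolyl hydroxylase, was at 3.35 (2nd probe 0.26) and Crtap at 1.71. P3h1, which acts with Crtap, was at least 3.32-fold higher, while the lysyl hydroxylase gene Plod3 was at -1.56 and P4ha2 at -1.05.

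**Figure D3:**
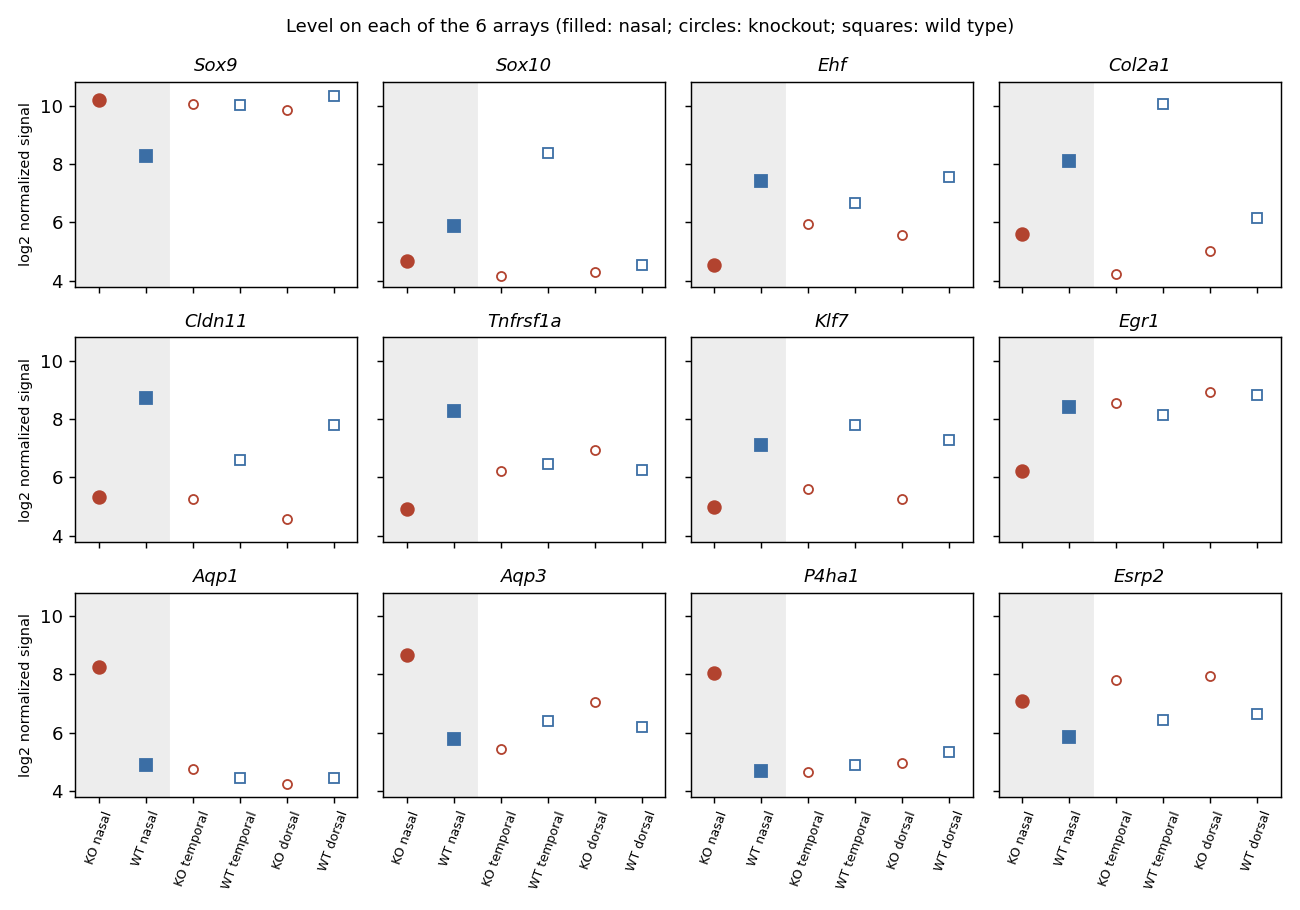
Level (log2 normalized signal) of 12 genes on each of the 6 arrays, with the nasal pair shaded and filled, circles for arrays labelled knockout and squares for wild type. Ehf, Col2a1, Cldn11 and Klf7 are lower on each array labelled knockout than on its wild-type partner and Esrp2 is higher on each, while Sox9, Aqp1, P4ha1 and Egr1 have 1 nasal array apart from the other 5.

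Of the genes that build the epithelial sheet, Esrp2 and Dsc3 were at least 2-fold higher on the array labelled knockout in all 3 regions, and Pkp2 in nasal alone. Esrp2, a splicing regulator of epithelial cells, read 7.08 (KO-labelled) against 5.84 (WT) in nasal (1.24, probes 1.19 to 1.24), 7.81 (KO-labelled) against 6.43 (WT) in temporal and 7.95 (KO-labelled) against 6.64 (WT) in dorsal. The desmosomal cadherin gene Dsc3 read 6.31 (KO-labelled) against 5.20 (WT), 7.68 (KO-labelled) against 4.92 (WT) and 6.59 (KO-labelled) against 5.03 (WT) in the same order of regions. The plakophilin gene Pkp2 read 6.93 on the KO-labelled against 5.14 on the WT array (1.78), with 4.70 to 5.39 on the other arrays, so the nasal array labelled knockout was the highest of the 6. Of 20 genes of desmosomes and epithelial adhesion compared, 12 were higher and 8 lower, with 6 and 2 past 2-fold, against 10.5% of all genes each way (median 0.20). Ovol2, a repressor that keeps cells epithelial, was lower, with 7.06 on the KO-labelled against 8.74 on the WT array (probes -1.94 to -1.68), as was Cdh3, the P-cadherin gene, by its brightest probe (-1.05, 3 probes to 0.77). E-cadherin (Cdh1) and Epcam differed by 0.16 and -0.23.

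Claudins, which seal the space between epithelial cells, held the largest differences of that layer. Cldn11 read 5.33 (KO-labelled) against 8.74 (WT) in nasal (-3.40, bead SE 0.12), 5.25 (KO-labelled) against 6.58 (WT) in temporal and 4.58 (KO-labelled) against 7.79 (WT) in dorsal, and the 3 arrays labelled knockout were the 3 lowest. Cldn23 read 6.62 on the KO-labelled against 8.72 on the WT array (-2.10) and Cldn10 4.63 on the KO-labelled against 6.23 on the WT array (-1.60), while Cldn3 read 7.66 on the KO-labelled against 6.51 on the WT array (1.15). In all, 18 of 24 claudin and tight junction genes were compared, 9 higher and 9 lower, with 1 higher and 5 lower past 2-fold, against 10.5% of all genes each way (median 0.05). The tight junction scaffold gene Tjp1 differed by 0.68 and occludin (Ocln) by 0.41.

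Keratins of the basal layer were nearly level, and Krt6a and Krt23 were past 2-fold. Krt6a read 6.45 on the KO-labelled against 4.98 on the WT array (1.47, probes 1.29 to 1.47), with 4.31 to 5.01 on the other 4 arrays, and Krt23 was at least 2.45-fold higher. Krt23 read 5.78 on the KO-labelled nasal array but 7.17 on the WT temporal one. Of 11 keratins compared, 7 were higher and 4 lower (median 0.16). Of 15 markers of cornifying epidermis 7 were compared, 3 higher and 4 lower. The suprabasal keratin gene Krt10 read 4.70 on the KO-labelled against 6.81 on the WT array (-2.11), with 5.85 to 7.15 on the other arrays, so the KO-labelled nasal array was the lowest, whereas Tgm1, a cross-linking enzyme of the cornified envelope, was at 1.52 and Dsg1a at least 2.66-fold higher by its brightest probe but at 0.36 by another detected on both arrays. Among 18 transcription factors of the eye surface and its placodes, 10 were higher and 8 lower (median 0.23). Klf7, a Krüppel-like factor, read 4.99 (KO-labelled) against 7.13 (WT) in nasal, 5.60 (KO-labelled) against 7.81 (WT) in temporal and 5.26 (KO-labelled) against 7.28 (WT) in dorsal, but a 2nd nasal probe gave 1.28. Dlx3 differed by 1.08, Irx3 by 0.93 and Klf4 by 0.78.

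Water channels were the most prominent of the transport genes. Aqp1, the water channel of fluid-secreting epithelia and of vessels, read 8.26 on the array labelled knockout against 4.88 on wild type (3.38, bead SE 0.17) and 4.24 to 4.76 on the other 4 arrays. Aqp3, which also carries glycerol, read 8.66 on the KO-labelled against 5.78 on the WT array (2.88, bead SE 0.12), with 5.45 to 7.05 on the others, so both genes were highest of the 6 on the KO-labelled nasal array. Aqp8 was at least 1.91-fold higher, and the chloride channel gene Ano1 differed by 1.04. Of 28 water and ion transport genes 17 were compared, 10 higher and 7 lower, with 4 higher and 0 lower past 2-fold, against 10.5% of all genes each way (median 0.21). Of the 4, Aqp8 is under 2-fold by its bound. The remaining carriers of glandular secretion were close to level, with Slc12a2 at -0.10 and Cftr at -0.07. Aqp1 is also an endothelial marker. Egfl7, another such marker, was at least 2.42-fold higher, but of 20 endothelial markers on the array only Aqp1, Egfl7 and Plvap were compared, and Pecam1, Cdh5 and Kdr were not. Aqp1 alone carried 291 intensity units of the list's summed signal on the KO-labelled and 13.5 on the WT array. The other 19 summed to 124 on the KO-labelled and 69.0 on the WT array, and their part in the Aqp1 value was not tested.

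Genes that respond to low oxygen were split, with the largest differences upward. P4ha1 read 8.04 on the KO-labelled against 4.69 on the WT array (3.35, bead SE 0.11) and 4.66 to 5.34 on the other 4 arrays, but its 2nd probe differed by 0.26. Hif3a, a regulator of the HIF pathway, read 8.80 on the KO-labelled against 6.26 on the WT array (2.54), with 2 other probes at 0.05 and -0.86. Ankrd37 read 6.73 on the KO-labelled against 5.05 on the WT array (1.68) but 6.96 on the dorsal array labelled knockout. Vegfa, the vessel growth factor, differed by 1.19 (2nd probe -0.28), the glucose carrier genes Slc2a3 and Slc2a1 by 1.12 and 0.71, Ndrg1 by 1.02, and Pdk1, which limits the entry of pyruvate into mitochondrial metabolism, was at least 2.10-fold higher. The HIF hydroxylase genes Egln1 and Egln3 differed by -0.88 and -0.32. Of 31 genes 24 were compared, 13 higher and 11 lower, with 7 and 1 past 2-fold (10.5% of all genes each way), and the median was 0.27 (0.65 with median scaling, when the median of all genes was 0.17). For glycolysis 17 of 23 were compared, 12 higher and 5 lower (median 0.40), with Ldha at 0.56, Gapdh at 0.30 and Pfkfb4, not detected on the array labelled knockout, at least 3.18-fold lower. The summed signal of the hypoxia genes was 6740 intensity units on the array labelled knockout and 4466 on wild type.

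The promoters of the 3 hypoxia genes with the largest differences detected on both arrays are shown because HIF factors bind a short core sequence. They are 300-base windows around the annotated start, from RefSeq on GRCm38.p6, written 5′ to 3′ on the gene's strand. Capitals mark ACGTG or GCGTG on either strand (CACGT or CACGC where the match is on the other strand). P4ha1 lies at chr10:59323046-59323345 on the plus strand, Hif3a at chr7:17062378-17062677 and Ankrd37 at chr8:45999801-46000100, both on the minus strand.
P4ha1: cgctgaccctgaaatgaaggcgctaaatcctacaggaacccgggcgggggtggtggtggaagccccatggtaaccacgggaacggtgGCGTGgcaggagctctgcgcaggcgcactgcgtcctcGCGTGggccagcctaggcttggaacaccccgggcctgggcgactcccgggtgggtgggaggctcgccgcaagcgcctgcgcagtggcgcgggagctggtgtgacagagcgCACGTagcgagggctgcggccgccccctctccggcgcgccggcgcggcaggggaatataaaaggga
Hif3a: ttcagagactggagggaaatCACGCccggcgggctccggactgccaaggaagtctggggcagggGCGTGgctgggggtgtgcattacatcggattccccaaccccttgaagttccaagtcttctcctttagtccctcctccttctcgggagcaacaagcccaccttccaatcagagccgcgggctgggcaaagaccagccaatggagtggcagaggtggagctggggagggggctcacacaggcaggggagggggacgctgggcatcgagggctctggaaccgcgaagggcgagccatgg
Ankrd37: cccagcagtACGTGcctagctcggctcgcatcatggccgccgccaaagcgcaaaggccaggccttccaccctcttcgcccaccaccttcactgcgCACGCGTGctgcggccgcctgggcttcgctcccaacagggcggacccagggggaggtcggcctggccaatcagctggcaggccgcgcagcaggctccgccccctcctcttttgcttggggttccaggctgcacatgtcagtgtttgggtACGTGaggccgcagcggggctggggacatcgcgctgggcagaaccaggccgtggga
They held 3, 2 and 4 matches, of which 2 overlap in Ankrd37. The core was found in 21 of 25 promoters of the hypoxia list (84%), in 63.5% of the 8326 promoters of compared genes and in 43.8% of all 27025. A match in such a window is a description and not a site, and genes of the list that were lower, such as P4ha2, held it too.

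FGF signalling was described by its ligands and receptors and by the genes it switches on. Egr1, an immediate early target of ERK, read 6.23 on the KO-labelled against 8.43 on the WT array (-2.19, bead SE 0.11) and 8.14 to 8.93 on the other 4 arrays, so the KO-labelled nasal array stood alone. Dusp4, an ERK phosphatase, read 6.27 on the KO-labelled against 7.56 on the WT array (-1.30), and Shisa2 was at least 1.74-fold lower. The feedback inhibitors Spry2, Spred2 and Il17rd differed by -0.96, -0.91 and -0.88, Spred1 by -0.30 and Dusp6 by -0.20 (2nd probe -1.295). The ETS targets of the pathway Etv4 and Etv5 differed by 0.88 and -0.35. Another ETS target, Etv1, gave 0.99 and -0.90 from its 2 probes. Of 24 feedback and target genes 20 were compared, 7 higher and 13 lower, with 0 higher and 3 lower past 2-fold. Over all genes 10.5% were lower by as much, which for 20 genes is near the count seen. The median was -0.33, and -0.09 with median scaling. Upstream of them Fgfr2, the receptor of the gland bud, differed by -0.06, Fgfr1 by -0.75, Fgfr3 by 0.24, Fgf9 by -0.72 and Fgf1 by 1.02, and Fgf10, the mesenchymal ligand of the bud, was not among the compared genes. Fgfbp1, which releases FGFs from matrix, was at least 2.59-fold higher, and Fgfbp3 gave 1.38 and -2.03 from its 2 probes. Of other immediate early genes Fosl2 was at -2.12 (3 probes to 0.70), Klf6 at -1.26 (2nd probe 0.14) and Ccn2 at least 2.68-fold lower, while Zfp36 was at 1.61, Jund at 1.06 and Jun at 0.81. In that list 17 of 28 were compared, 8 higher and 9 lower.

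Heparan sulfate genes were close to level as a list. Of 32 on the array 21 were compared, 9 higher and 12 lower (median -0.04, and 0.26 with median scaling). Ndst2, an enzyme that places N-sulfate groups on the chain, read 7.50 on the KO-labelled against 4.81 on the WT array (2.68, bead SE 0.15) and 4.81 to 6.54 on the other arrays. The chain polymerase genes Ext1 and Ext2 differed by 0.17 and 0.01, Hs2st1 by -0.01, Hs6st1 by 0.58, and Sulf2, which trims sulfate from finished chains, by 0.97 (2nd probe -0.50). Ugdh, which makes the sugar precursor of the chains, was at -0.41. Hs3st3b1, a 3-O-sulfotransferase, was at -1.11 by its brightest probe and at 0.99 by another detected on both arrays. Of the core proteins that carry such chains 17 were compared, 5 higher and 12 lower (median -0.30, and 0.02 with median scaling). Cd44, the hyaluronan receptor, was at 1.45 and above 0 in each of 6 probes detected on both arrays (0.17 to 2.09), the glypican gene Gpc1 was at 1.10 and Gpc2 at -0.90, and the syndecan genes Sdc1 to Sdc4 lay between -0.45 and -0.09. Of 14 genes for chondroitin sulfate and hyaluronan 5 were higher and 9 lower (median -0.47, and -0.27 with median scaling), with the hyaluronan synthase gene Has2 at -0.65, the hyaluronidase gene Hyal1 at 1.18 and the sulfotransferase gene Chst15 at -1.66 and 1.24 from its 2 probes.

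Among morphogen pathways the Wnt list had 11 genes higher and 14 lower of 25 compared. Wnt3 was at least 3.55-fold higher on the array labelled knockout (6.31), and the other 5 arrays lay between 4.17 and 4.64. Past 2-fold in the other direction were the receptor gene Fzd7 (-1.25), the nuclear effector gene Lef1 (-1.18, 3 probes to -0.05) and the feedback gene Axin2 (-1.02), while the receptor genes Fzd6 and Fzd2 were at 0.84 and 0.82. In the BMP and TGF-beta list 12 were higher and 9 lower. Bmpr1a, the type I BMP receptor, read 6.36 on the KO-labelled against 8.30 on the WT array (-1.93, 2nd probe -0.55) with 7.96 to 8.10 on the other arrays, and the activin antagonist gene Fst was at -1.61. Tgfbr3, the co-receptor betaglycan, was at 1.66 (2nd probe 0.07), the TGF-beta target Tgfbi at least 2.89-fold higher and the BMP antagonist gene Chrd at least 1.78-fold higher, while the BMP targets Id1 to Id4 lay between -0.24 and 0.58. Shh was at least 2.44-fold lower, being detected on the wild-type nasal array (5.87) and not on the array labelled knockout, and Hhat, which acylates the hedgehog protein, at least 2.37-fold lower. The hedgehog targets Ptch1 and Gli1 differed by 0.98 and -0.30. In the Notch list 9 of 15 were higher, with the receptor genes Notch3 and Notch1 at 1.01 and 0.96, the target Hes1 at 0.25, and the ligand gene Jag2 at -1.03 and the mediator gene Rbpj at -0.99.

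Fatty acid and cholesterol synthesis genes were more often higher than lower. Of 27 genes 18 were compared, and 15 of them were higher and 3 lower, with 5 and 2 past 2-fold, against 10.5% of all genes each way. Of all genes 48.1% had a difference above 0. The median was 0.53, against -0.04 for all genes, and 0.81 with median scaling. Fdps, which makes farnesyl diphosphate, read 7.34 on the KO-labelled against 5.78 on the WT array (1.56, bead SE 0.12), with 6.49 to 7.05 on the other 4 arrays. Insig1, a sterol sensor, read 8.0 on the KO-labelled against 6.78 on the WT array (1.23, probes to 1.37), with 7.98 to 8.38 on the others, so there the wild-type nasal array was the low one. Dgat1, which completes triglycerides, was at least 3.44-fold higher. It was detected on the array labelled knockout alone and could only enter the comparison as higher. Elovl1 and Nsdhl differed by 1.18 and 1.10 (2nd probes 0.21 and 0.36). The steps from acetyl-CoA and squalene were smaller, with Acly at 0.46, Sqle at 0.44, Cyp51 at 0.59 and Lss at 0.38. Dhcr7, the last enzyme of cholesterol synthesis, differed the other way (-1.52), as did Srebf2, the main regulator of the pathway, by its brighter probe (-1.05, 2nd probe 0.63), and Scd2 was at -0.76. In temporal and dorsal the medians of the list were -0.05 and 0.18.

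Peroxisome and ether lipid genes are of interest because the Harderian gland is known to secrete ether lipids. Besides Pex6, the import gene Pex7 was at 1.30 (2nd probe 0.87) and Pex11a, a gene of peroxisome division, at 1.19 (2nd probe -0.31), whereas the ether lipid enzymes Agps and Far1 were at -2.23 and -1.56 and Gnpat at 0.82. Agps read 6.34 (KO-labelled) against 8.57 (WT) by that probe and gave -0.41 and 0.58 from 2 others detected on both arrays. Of 21 compared, 9 were higher and 12 lower (median -0.12).

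Class I antigen presentation and interferon genes were more often lower. Of 29 genes 21 were compared, 6 higher and 15 lower, with 0 and 4 past 2-fold, against 10.5% of all genes each way. Of the 4, Irf1 and Psmb9 were detected by their brightest probes on the wild-type array alone and could only enter the comparison as lower. Of the 29 genes, 17 were detected on the KO-labelled and 20 on the WT array. The list median was -0.21, and -0.02 with median scaling. Irf1, the interferon regulatory factor, was at least 5.49-fold lower by its brightest probe, and 1 other probe detected on both arrays gave -0.96. H2-T23, a non-classical class I gene, read 6.08 on the KO-labelled against 7.90 on the WT array (-1.82, 3 probes to -0.92). The peptidase gene Psmb9 was at least 2.88-fold lower, while its partner Psmb8 was at 0.83, and B2m, the shared light chain, was at -0.55. In the TNF and NF-kB list 9 genes were higher and 9 lower. Rela, the p65 subunit of NF-kB, read 7.46 on the KO-labelled against 9.08 on the WT array (-1.62) with 8.61 to 9.22 on the other arrays, and the death receptor gene Fas was at 1.20 (2nd probe 0.08).

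Of 39 proliferation genes compared 17 were higher and 22 lower. With 5 past 2-fold each way their share was near the 10.5% of all genes. The mitotic kinase gene Plk1 read 7.07 on the KO-labelled against 9.15 on the WT array (-2.08), with 8.64 to 9.53 on the other 4 arrays. Mcm10 was at -1.80 (2nd probe 0.20) and Kif20a at -1.66. The S-phase regulators E2f1 and E2f2 were at 1.92 and 1.69 (other E2f2 probes from 0.38) and the centriole kinase gene Plk4 at 1.74, and E2f1 read 5.41 on the wild-type nasal array against 6.80 to 7.54 on the other 5. Pcna and Cdk1 differed by -0.13 and 0.18. Targets of p53 were 11 higher and 13 lower of 24, with Plk2 at 1.38, Cdkn1a at -1.08 and 0.93 from its 2 probes, and the stress genes Sesn2 and Sesn1 at -1.70 and -1.23 (other probes -0.37 and 0.36 at the upper end). Of 29 genes of the heat shock and unfolded protein responses 13 were higher and 16 lower, with Herpud1 at 1.62 (2nd probe 1.35), Asns at -1.52 (2nd probe -0.45) and Dnajc3 at -1.46. Ribosomal protein genes were 6 higher and 21 lower of 28, with Rplp0 past 2-fold (-1.43, 2nd probe 0.55) and a median of -0.18 that turned to 0.19 with median scaling. Respiratory chain genes had 17 higher and 22 lower of 39, with Ndufb10 at 1.56 (probes 1.36 to 1.56), Uqcrfs1 at 1.07 and Ndufb3 at -1.01.

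**Figure D4:**
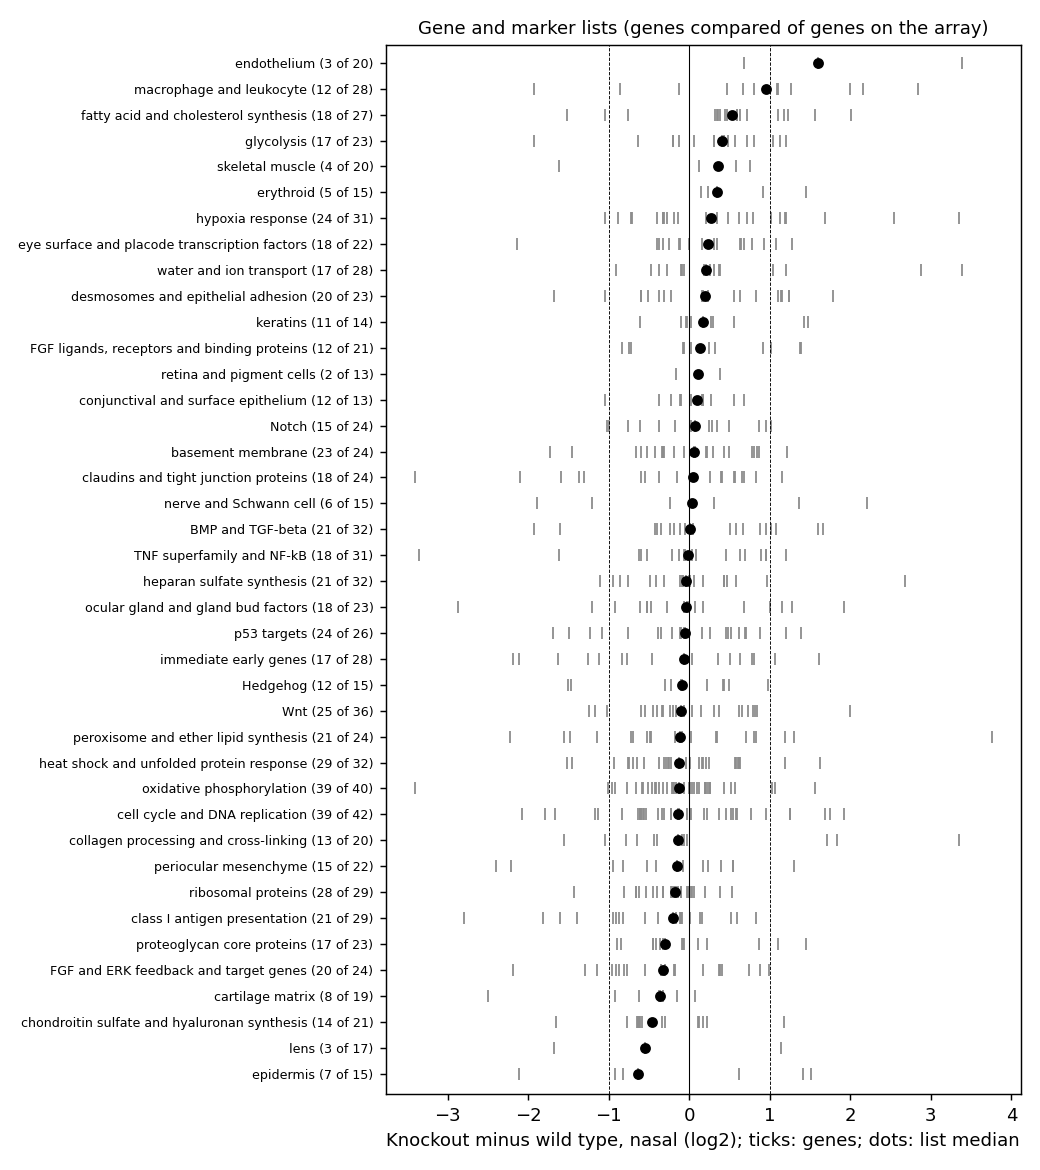
Differences between the nasal array labelled knockout and wild type (x axis, log2) for 40 gene and marker lists, with a tick per compared gene and a dot at the list median, ordered by median, and dashed lines at 2-fold. The brackets give genes compared of genes on the array. Macrophage markers (12 of 28) have a median of 0.95, fatty acid and cholesterol synthesis 0.53 and FGF and ERK targets -0.33, against -0.04 for all genes.

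Markers of cells other than epithelium differed between the same 2 arrays. Of 28 macrophage and leukocyte markers 12 were compared, 9 higher and 3 lower, with a median of 0.95 that came to 0.05 when undetected genes were included. Lyz1 was at least 6.78-fold and the mannose receptor gene Mrc1 at least 4.41-fold higher, Lyz2 was at 2.0 and Stab1 at 1.26. Lyz1, Mrc1, Csf1r and Cx3cr1 were detected on the array labelled knockout alone and could only enter the comparison as higher. Laptm5 was at least 3.14-fold lower, and the defining markers C1qa, C1qb, C1qc, Ptprc, Cd14 and Itgam were not among the compared genes. The 28 summed to 1289 intensity units on the array labelled knockout and 532 on wild type. Haemoglobin genes, which have near-identical copies, were higher, with Hba-a1 at 1.45 and Hbb-b2 at 0.92, and 15 erythroid markers summed to 379 intensity units on the KO-labelled and 212 on the WT array. Among nerve and Schwann cell markers Erbb3 and Mbp were at 2.21 and 1.36, Sox10 at -1.21 and Fabp7 at least 3.05-fold lower. Lens markers were near background, with 3 of 17 compared, 1 higher and 2 lower, Prox1 at 1.14 and Cryba1 at -1.68. Of 20 muscle markers 4 were compared, 3 higher and 1 lower (median 0.35). The lower one, Tnni2, was at least 2.54-fold lower and was not detected on the array labelled knockout. In dissected tissue fewer cells of a type and less RNA per cell cannot be told apart, and the part of these cells in the other differences was not tested.

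The other 4 arrays, from other regions and both genotypes, give a range in which to place the 2 nasal arrays. They are no baseline for nasal tissue, so they cannot show which nasal array changed. A gene chosen for a nasal difference is likely to have a nasal array outside that range, and the share over all genes was not computed. Of the 1087 higher genes, 512 (47.1%) had the array labelled knockout alone outside the range of the other 4 arrays, 166 (15.3%) the wild-type array alone, 367 (33.8%) both and 42 neither. Of the 1082 lower genes the numbers were 456 (42.1%), 223 (20.6%), 337 (31.1%) and 66. By a margin of at least 1 log2 unit, the array labelled knockout alone lay outside for 297 higher and 199 lower genes, and the wild-type array alone for 49 and 86. The higher genes were also higher in both other regions in 285 cases and at least 2-fold so in 7. In another 7 they were at least 2-fold lower in both. The lower genes were lower in both in 310 cases, at least 2-fold so in 22, and at least 2-fold higher in both in 8. The share of all genes with the same direction in every region was not computed.

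Those that were at least 2-fold apart the same way in all 3 regions included Acbd4, Esrp2 and Dsc3 upward and Cldn11, Noxo1, Col2a1 and Klf7 downward. Unc13b, a vesicle priming factor, read 7.98 (KO-labelled) against 5.44 (WT), 7.41 (KO-labelled) against 6.29 (WT) and 7.22 (KO-labelled) against 6.08 (WT) in nasal, temporal and dorsal. Tmem79, a membrane protein of skin barrier formation, read 7.47 (KO-labelled) against 5.58 (WT), 8.50 (KO-labelled) against 6.25 (WT) and 7.12 (KO-labelled) against 5.51 (WT). The chromatin gene Bahd1 was at least 2.98-fold higher in nasal and read 5.71 (KO-labelled) against 4.69 (WT) in temporal and 5.80 (KO-labelled) against 4.60 (WT) in dorsal. Anxa11, a calcium-dependent membrane binder, read 5.22 on the KO-labelled against 7.78 on the WT array (2nd nasal probe -0.76), 5.49 (KO-labelled) against 6.65 (WT) and 6.87 (KO-labelled) against 7.87 (WT). Tbcel, a tubulin chaperone relative, was at least 2.80-fold lower in nasal, and read 4.97 (KO-labelled) against 6.38 (WT) in temporal and 5.36 (KO-labelled) against 6.66 (WT) in dorsal. Noxo1 read 4.24 (KO-labelled) against 7.61 (WT), 4.21 (KO-labelled) against 8.14 (WT) and 4.60 (KO-labelled) against 6.05 (WT). These genes were chosen because each array labelled knockout lay on the same side of its wild-type partner. With 1 array per region and genotype no region's value was tested.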

How the data were processed

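Epithelium of 3 conjunctival regions was laser-dissected, and its RNA was amplified and hybridised to 6 Illumina bead arrays, per the labels' protocols. For each of 45281 probes the deposited table holds a mean bead signal intensity with its standard error, a count of beads and a detection p-value, per the file headers. The submitters' processing notes name GenomeStudio and give no version. The deposited intensities were not background-subtracted or normalized between arrays, as their medians showed. A further 1315 entries without a probe identifier, 1210 of them with values, were not used. The authors' processed intensities kept the order of the signals on every array (Spearman 1) and served as an alternative. How those were normalized is not stated in the labels used.

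Background was corrected with normexp, with parameters fitted from the detection p-values and with offset 16 (limma 3.58.1, R 4.3.3), followed by quantile normalization and log2. Bead errors were carried through the background correction and log2 but not through the quantile normalization. Probes were named through the platform annotation and RefSeq (34885 with 1 symbol, 18 with several and 10378 with none). A gene was read from its brightest probe detected on at least 2 arrays and compared if detected on at least 1 nasal array, and 2-fold was the threshold. The steps were tested on simulated data. For a gene undetected on 1 side, the fold is a lower bound against the lowest detected signal there (4.58 for the array labelled knockout and 4.49 for wild type, log2).

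No p-value was computed, as there is 1 array a side and their number limits the precision. Named genes are the 10 with the largest differences each way and the 10 each way whose probes detected on both nasal arrays all agreed. The 6 largest bounds each way were added, with up to 3 each way past 2-fold in each of 40 lists. So were up to 6 each way past 2-fold the same or the opposite way in the other regions, and members that explain a list. Genes of X inactivation and the Y chromosome were left out. The comparison, its lists and its genes were chosen with earlier results of these data known. Promoters are RefSeq windows on GRCm38.p6, searched on both strands. In all, 9 alternative settings were tried, for the background, the normalization, the detection filter, the probes used and the source of the values. The 2-fold threshold, the lists and the annotation were not varied.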

Additional observations from a re-analysis of the deposited data

Results flagged for a closer look

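Among genes past 2-fold in nasal, 7 higher and 8 lower ones were past 2-fold the other way in both temporal and dorsal. Named here are 12 of them. The difference between regions was not tested, as each region has 1 array a side. Higher in nasal on the array labelled knockout and lower in the others were Dab2, an endocytic adaptor (2.54, 2nd probe 0.30), Klhl3, a ubiquitin ligase adaptor (1.73, undetected on the wild-type nasal array), Dcaf5 (1.70), Zfp286 (1.70, 2nd probe 0.77), Sipa1l1 (1.66) and the kinesin gene Kif1c (1.45). Dab2 read 8.20 (KO-labelled) against 5.66 (WT) in nasal, 5.81 (KO-labelled) against 6.91 (WT) in temporal and 6.37 (KO-labelled) against 7.86 (WT) in dorsal.

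The reverse order was seen for Laptm5, a lysosomal protein of leukocytes (-1.93), Khnyn (-1.81), Plekhm2, a lysosome transport adaptor (-1.51), Trim68 (-1.21), the Wnt effector gene Lef1 (-1.18, other probes to -0.05) and Bdh2 (-1.12). Laptm5, Khnyn and Bdh2 were undetected on the nasal array labelled knockout, so their differences rest on a level below detection. Lef1 read 6.69 (KO-labelled) against 7.86 (WT) in nasal, 6.99 (KO-labelled) against 4.31 (WT) in temporal and 6.94 (KO-labelled) against 5.17 (WT) in dorsal.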

How the results depend on the processing

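The count of genes at least 2-fold apart depended most on the background. Without background correction 313 were higher and 226 lower, and with an offset of 50 it was 470 and 414, since both draw dim signals together. Keeping only genes detected on both nasal arrays left 845 higher and 704 lower. Over all 9 alternatives the counts ran from 313 to 1541 higher and from 226 to 1271 lower.

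The medians of all 40 lists were recomputed, and the 5 lists followed here kept their direction. Macrophage markers had 0.33 without background correction, 0.44 with offset 50 and 0.045 without a detection filter. FGF and ERK targets had -0.087 with median scaling and -0.19 without the filter. Hypoxia genes had 0.65 and 0.15 under those settings. Without background correction the glycolysis genes had 0.27 and those of fatty acid and cholesterol synthesis 0.33, and offset 50 gave 0.28 and 0.40. Median scaling gave 0.71 and 0.81, and dropping the filter 0.19 and 0.35. The mean of probes gave 0.35 for the fatty acid list. Median scaling turned the sign of 14 of 40 lists, 1 of them with a median beyond 0.2 (proteoglycan cores). Dropping the filter turned 5, of which 2 had a median beyond 0.2. The mean of probes turned 5, detection on both nasal arrays 3, and detection p under 0.01 and the authors' values 2 each, all with medians within 0.2.

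Of 179 named genes, 3 changed sign, all with the mean of probes: Elf5 (-0.99), Fgfbp3 (-0.32) and Hs3st3b1 (0.080). Their probes disagree. Without background correction 93 were under 2-fold. No replicate could be left out, and no paired analysis was possible because each group holds 1 array. Dim genes near the detection limit are the least certain, and no setting speaks to variation between embryos.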
